A study of Mus musculus with 28 samples.

Results

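This account concerns the basophil-labelled libraries of mice that received papain with FK506 and of mice that received papain alone. They are 6 of the 28 libraries of a study of cells sorted from mouse lung, chosen by their labels: papain with FK506 replicates 7, 8 and 9, and papain replicates 4, 5 and 6. The single untreated basophil-labelled library was left out. All mice were WT (wild type) C57BL/6 aged 8 weeks. In the FK506 group, mice were injected in the peritoneum with 0.2 mg of FK506 in 100 µL of methyl cellulose per day on 3 days in a row, and, after a gap of 2 days, on 3 more days together with papain through the nose (50 µg in 40 µL of PBS per day). The papain group received papain without FK506; the labels do not say if its mice were injected with methyl cellulose. Lung cells were stained and sorted on a flow cytometer. A Lexogen kit that reads the 3' ends of transcripts was used on 10 ng of RNA. Each library's title carries 1 number, and no label says what it numbers, so the p-values measure the spread between these libraries, which may in part be technical. Values below run in the order of replicates 7, 8 and 9 for papain with FK506, called the FK506 libraries, and 4, 5 and 6 for papain.

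Basophils are rare granulocytes that bind IgE and release histamine, IL-4 and chemokines, and papain is a plant cysteine protease that sets off allergic inflammation when inhaled. FK506 (tacrolimus) binds the immunophilin FKBP12, encoded by Fkbp1a, and the complex blocks calcineurin, a phosphatase driven by calcium. Calcineurin dephosphorylates NFAT proteins, which then enter the nucleus and switch on cytokine genes in lymphocytes, mast cells and basophils. MHC class II molecules are made mostly by dendritic cells, macrophages and B cells and present peptides to CD4 T cells.

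The values are deposited CPM (reads of a gene scaled to a common library total). Every value above 0 was a whole number of reads within the rounding of the table, which gave library totals of 2291576, 2735942 and 2466483 reads for the FK506 libraries, against 3123915, 3094454 and 2933168 reads for the papain libraries. All 3 FK506 libraries were thus shallower than all 3 papain libraries; the part of this in the results was not tested. Genes above 0 numbered 6401, 7894 and 7364 in the FK506 libraries and 7153, 6449 and 6922 in the papain libraries, of 21377 listed. The libraries resembled each other only loosely: over the tested genes, Spearman's rho between libraries was 0.395 to 0.545 within the FK506 group, 0.481 to 0.562 within the papain group and 0.341 to 0.533 between the groups, described here without a p-value since genes within a library share its depth. Of the 5782 genes tested, 2674 were listed at 0 in at least 1 library. Gapdh, a gene of glycolysis in all cells, was at 0 in 2 of the 6 libraries.

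FK506 replicate 7 and papain replicate 4 stood apart from the others of their groups. Replicate 7 had 1123 tested genes at 0, against 408 and 552 in the other FK506 libraries, and held 3 transcripts known from group 2 innate lymphoid cells (ILC2) that the other libraries had little of. Gata3, a transcription factor gene, stood there at 142 CPM, Il1rl1, the IL-33 receptor gene, at 99.5 CPM and Thy1 at 247 CPM (all 3 named after their values were seen), where the other FK506 libraries had at most 2.4 CPM and the papain libraries at most 25.6 CPM of any of these. The sum over the list of 20 ILC2 genes did not single out replicate 7. It was 2457, 1244 and 1878 CPM in the FK506 libraries, against 855, 2069.9 and 2676 CPM in the papain libraries. Arg1, a list member that macrophages also express, weighed on these sums. It stood at 209.5, 603 and 1079 CPM in FK506 libraries and 364, 1511 and 2119.6 CPM in papain libraries, lowest in replicate 7. Arg1 made up a small part of the sum in replicate 7 and most of the sum in papain replicates 5 and 6. The other members together therefore summed to more in replicate 7 than in any other library. Papain replicate 4 held most of the platelet transcripts: the platelet and erythroid list summed to 110.0, 600.5 and 782 CPM in the FK506 libraries, against 5985, 819.6 and 537 CPM in the papain libraries.

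The label was set against marker genes first. Of the genes that define basophils, the protease genes Mcpt8 and Prss34, the IgE receptor chain genes Fcer1a and Ms4a2 and the activating receptor gene Cd200r3 were listed at 0 in all 6 libraries. Cpa3, which encodes a carboxypeptidase of basophil and mast cell granules, stood at 18.8 CPM in FK506 replicate 7 and at 0 elsewhere, and Il3ra, the alpha chain of the IL-3 receptor, reached at most 9.3 CPM. Il4 was listed at 0 throughout. Of the defining genes, 2 were present: Gata2, a transcription factor gene also used by mast cells and endothelium, stood at 120.0, 88.1 and 106 CPM in FK506 libraries and 164, 2.9 and 0 CPM in papain libraries, and Hdc, the histamine-forming enzyme, at 0.4, 76.8 and 24.7 CPM in FK506 libraries and 124, 40.4 and 37.5 CPM in papain libraries. The list of 20 basophil genes summed to 705, 2093 and 2206 CPM in the FK506 libraries, against 1833, 2497 and 2882 CPM in the papain libraries, but most of that sum came from Fcer1g, Osm, Csf2rb and Ccl9, which other myeloid cells express too. In every one of the 6 libraries the macrophage and monocyte list of 28 genes summed to more: 6993, 14922 and 18067 CPM in the FK506 libraries, against 14089, 23951 and 23722 CPM in the papain libraries. With the proteases and IgE receptor chains at 0, the libraries are called basophil-labelled here.

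**Figure D1:**
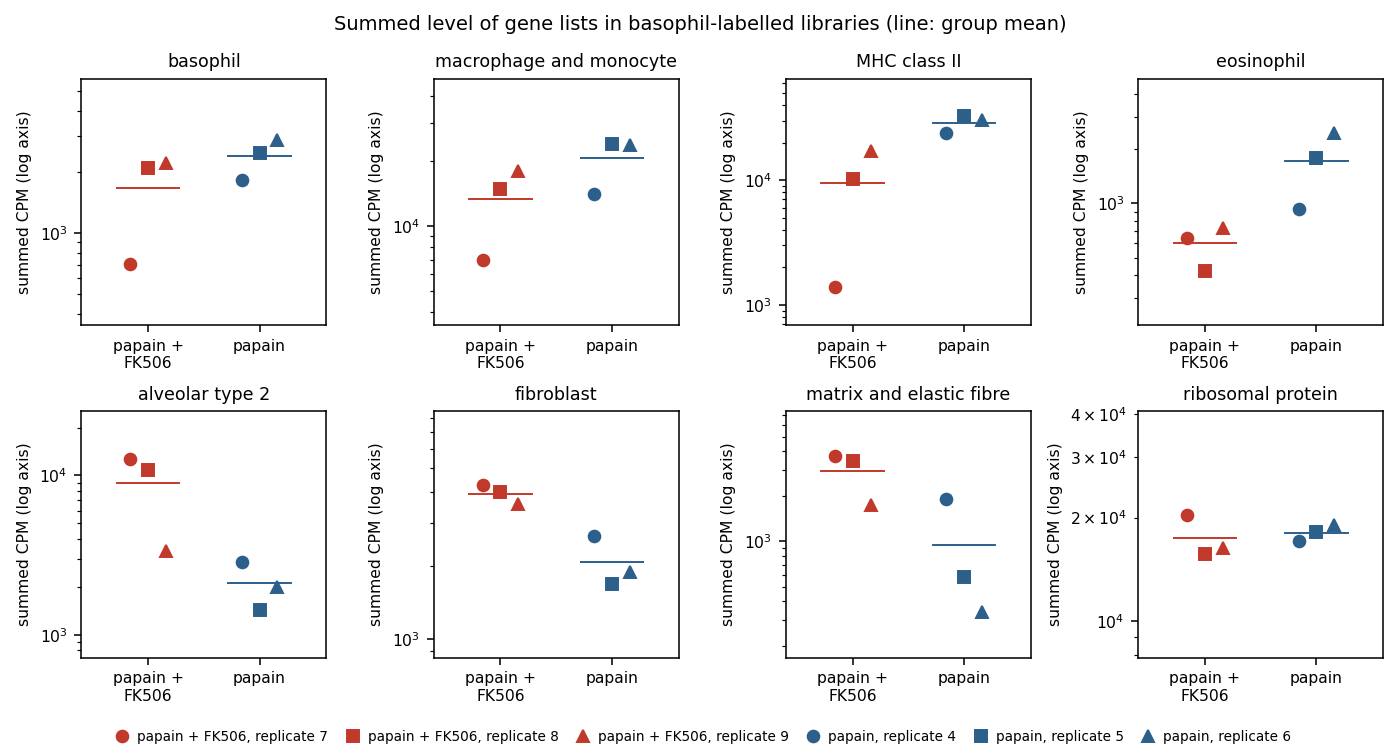
Summed CPM (log axis) of 8 gene lists in the 3 papain with FK506 libraries (red, left) and the 3 papain libraries (blue, right), 1 point a library, with a line at the group mean. The MHC class II sums with FK506 (1380 to 16978) all lie below those with papain (23971 to 32351), the alveolar type 2 sums (3365 to 12628) all lie above (1439 to 2880), and the ribosomal protein sums interleave.

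Across the genes, 3 of 5782 (0.0519%) passed a limma test at an adjusted p of 0.05, all of them higher with FK506: Sftpc, Acta2 and Eln. Without adjustment 355 genes (6.14%) had a p under 0.05, 175 higher (3.03%) and 180 lower (3.11%). In 666 genes (11.5%) the groups did not overlap, that is, all 3 libraries of a group lay above all 3 of the other, with 337 higher in the FK506 libraries (5.83%) and 329 lower (5.69%). The median log2 difference over all tested genes was -0.08. The number of calls was not stable: it was 0 without FK506 replicate 7, FK506 replicate 8 or papain replicate 6, 1 without papain replicate 5, 11 without papain replicate 4 and 21 without FK506 replicate 9. On the recovered reads, edgeR's quasi-likelihood test called 1 gene (0.0173%; Rnase2a, lower, adjusted p = 0.043) and DESeq2 called 46 of 5514 (0.834%), 32 higher and 14 lower.

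The 3 called genes encode proteins of the lung's structural cells. Sftpc (surfactant protein C, made by alveolar type 2 cells; GRCm38 chromosome 14, 70520949 to 70524081) stood at 3463, 2401 and 667 CPM in FK506 libraries and 314, 202 and 245 CPM in papain libraries. The FK506 libraries averaged 2177 ± 1411 CPM and the papain libraries 254 ± 56.2 CPM (SD, n = 3 each), a log2 difference of 2.77 with an SE of 0.49 (limma adjusted p = 0.0444). Acta2 (smooth muscle actin; chromosome 19, 34241090 to 34255590) stood at 559, 415 and 435 CPM in FK506 libraries and 66.6, 39.4 and 52.5 CPM in papain libraries, and its log2 difference was 3.07 (SE 0.55; adjusted p = 0.0444 in limma). Every FK506 library lay above every papain library. Eln (elastin, the core of elastic fibres; chromosome 5, 134702593 to 134747323) stood at 706, 1018 and 481 CPM in FK506 libraries and 146, 77.2 and 25.2 CPM in papain libraries, and its log2 difference was 3.31 (SE 0.59; adjusted p = 0.0444 in limma). In none of the 3 did the groups overlap, but each call was lost in 10 of the 18 other settings, where the adjusted p reached 0.618 for Sftpc and Eln and 0.31 for Acta2 while the log2 difference kept its sign.

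Other transcripts of type 2 cells lay on the same side. The 20 genes of the alveolar type 2 list summed to 12628, 10847 and 3365 CPM in the FK506 libraries, against 2879.7, 1439 and 2008 CPM in the papain libraries. Of its 14 tested members 5 had non-overlapping groups with higher values in the FK506 libraries (background 5.83%). An unadjusted limma p under 0.05 was seen in 6, all higher (background 3.03%). The median log2 difference was 2.20 (-0.08 over all tested genes). Since a gene is tested once 3 libraries reach 10 CPM, a gene present in 1 group alone passes through that group, and such medians are descriptions and no support. Sftpa1 (surfactant protein A, a collectin of the airspace) stood at 3916, 3196 and 1003 CPM in FK506 libraries and 756, 256 and 411 CPM in papain libraries (log2 difference 2.38, SE 0.48). Sftpb (surfactant protein B, which spreads surfactant lipid) stood at 2048, 1349 and 368 CPM in FK506 libraries and 138, 56.2 and 233 CPM in papain libraries (log2 difference 2.97, SE 0.60). Sftpd (surfactant protein D, a collectin) stood at 873, 947 and 191 CPM in FK506 libraries and 182, 139 and 64.4 CPM in papain libraries (log2 difference 2.13, SE 0.60). FK506 replicate 9 was the lowest of its group for all 4 surfactant genes and still above every papain library. Lyz2, a lysozyme gene that macrophages also use, overlapped between the groups (509, 849 and 769 CPM with FK506 and 879, 531 and 722 CPM with papain; log2 difference -0.06, SE 0.39). The list's median ran from 1.76 to 2.97 when each library was left out in turn. Then 5 to 8 members were apart and higher, against 9.27% to 12.9% of all genes.

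All 6 tested airway secretory genes had positive log2 differences. Scgb1a1 (secretoglobin of club cells) stood at 6059, 3799 and 118 CPM in FK506 libraries and 8.6, 836 and 0 CPM in papain libraries; papain replicate 5 lay above FK506 replicate 9, so the groups overlapped (log2 difference 5.71, SE 1.54). Cbr2 (carbonyl reductase, abundant in club cells) stood at 1060.0, 609 and 169.9 CPM in FK506 libraries and 44.5, 102 and 91.4 CPM in papain libraries, without overlap (log2 difference 2.60, SE 0.64). Wfdc2 (a secreted protease inhibitor family member of airway epithelium) stood at 428, 199.6 and 112 CPM in FK506 libraries and 68.8, 1.3 and 16 CPM in papain libraries (log2 difference 3.69, SE 1.05). Lcn2 (lipocalin 2, which binds bacterial siderophores and is made by neutrophils and by stimulated epithelium) stood at 574, 768 and 256 CPM in FK506 libraries and 98.6, 71.7 and 51.5 CPM in papain libraries (log2 difference 2.67, SE 0.56). The neutrophil gene S100a8 overlapped, as it stood at 128, 371 and 126 CPM in FK506 libraries and 1527, 49.4 and 205 CPM in papain libraries. The airway secretory list summed to 7610.0, 4836 and 413 CPM in the FK506 libraries, against 234, 987 and 223 CPM in the papain libraries, with 6 of 16 members tested and 2 of them apart, both higher (background 5.83%). Without FK506 replicate 9, 5 of these 6 members were apart and higher (11.95% of all genes). Ager, which encodes a membrane receptor of type 1 cells, was measured at 498, 559 and 253 CPM in FK506 libraries and 327, 6.1 and 3.1 CPM in papain libraries, so papain replicate 4 lay within the range of the FK506 group (log2 difference 4.08, SE 1.09), and none of the 13 tested members of the alveolar type 1 list was apart. Without papain replicate 4, 7 were apart and higher (12.9% of all genes) and the median was 3.20, against 1.80 in all 6 libraries.

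Matrix, fibroblast and contractile genes lay mostly on the higher side. The 22 fibroblast genes summed to 4267, 3995 and 3560.4 CPM in the FK506 libraries, against 2648, 1688 and 1880.3 CPM in the papain libraries, without overlap, and 6 of 17 tested members were apart, all higher (background 5.83%), with a median log2 difference of 2.27. The matrix and elastic fibre list of 31 genes, of which 29 were listed, summed to 3691, 3461 and 1749 CPM in the FK506 libraries, against 1924, 574 and 336 CPM in the papain libraries; papain replicate 4 lay above FK506 replicate 9. Among its 19 tested members 4 were apart, all higher (background 5.83%). An unadjusted limma p under 0.05 was seen in 7, all higher (background 3.03%), and the median was 1.97. Mgp (matrix Gla protein, an inhibitor of calcification) stood at 1548, 1265 and 857 CPM in FK506 libraries and 576, 115 and 33.8 CPM in papain libraries (log2 difference 3.10, SE 0.67). Col1a2 (a chain of type I collagen) stood at 263, 363 and 404 CPM in FK506 libraries and 31.1, 77.2 and 46.4 CPM in papain libraries (log2 difference 2.71, SE 0.62). Sparcl1 (a matricellular protein related to SPARC) stood at 579, 413 and 327 CPM in FK506 libraries and 199, 22.9 and 16 CPM in papain libraries (log2 difference 3.21, SE 0.75). For each of these 3 genes the groups did not overlap.

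Papain replicate 4 came closest to the FK506 libraries in much of this set. Sparc (a collagen-binding matricellular protein) stood at 769.8, 968 and 382 CPM in FK506 libraries and 550.0, 46.5 and 34.8 CPM in papain libraries and overlapped through that library (log2 difference 2.68, SE 0.74). Fbn1 (fibrillin 1, the scaffold of elastic fibres) was listed at 0 in all 3 papain libraries and stood at 86.8, 19.0 and 62.0 CPM in the FK506 libraries. Bgn (biglycan, a small proteoglycan) stood at 619.7, 119.9 and 150.0 CPM in FK506 libraries and 135, 0 and 38.9 CPM in papain libraries (log2 difference 3.31, SE 1.17). Col6a2 (a chain of type VI collagen) stood at 95.6, 142 and 59.2 CPM in FK506 libraries and 24.3, 10.0 and 30.0 CPM in papain libraries (log2 difference 2.09, SE 1.00), without overlap. The reverse was seen for Thbs1 (thrombospondin 1), at 1.3, 49.3 and 68.1 CPM with FK506 and 67.9, 121 and 83.9 CPM with papain. It was also seen for Fn1 (fibronectin, which macrophages make too), at 99.1, 164 and 613 CPM with FK506 and 318, 619 and 1071 CPM with papain. Groups overlapped in both genes. Without papain replicate 4, 9 matrix and 12 fibroblast members were apart and higher, against 12.9% of all genes.

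Of the 16 smooth muscle genes 7 were tested, and Acta2 was the one whose groups did not overlap (background 5.83% higher). Without papain replicate 4 there were 4, all higher, against 12.9% of all genes. Mylk (myosin light chain kinase) stood at 132, 265 and 196 CPM in FK506 libraries and 229.8, 24.6 and 18.4 CPM in papain libraries. Cald1 (caldesmon) stood at 165, 345 and 166 CPM in FK506 libraries and 334, 34.6 and 18.8 CPM in papain libraries. In both, papain replicate 4 resembled the FK506 libraries. Myh11, the smooth muscle myosin gene, was too sparse to be tested but stood at 0.9, 243 and 219.7 CPM in FK506 libraries and 0, 0 and 0.3 CPM in papain libraries. Lmod1 (leiomodin 1, an actin filament nucleator), also not tested, stood at 162, 2.2 and 21.1 CPM with FK506 and 0, 0 and 0 CPM with papain. Tpm1 (tropomyosin 1), at 24.0, 183 and 128 CPM with FK506 and 178, 68.5 and 80.5 CPM with papain, showed the groups overlapping (log2 difference -0.30, SE 0.81). The endothelial list of 20 genes summed to 4212, 2869 and 1711 CPM in the FK506 libraries, against 4501, 820.2 and 532 CPM in the papain libraries, so the groups overlapped. Of 18 tested members 1 was apart and higher (background 5.83%) and 1 apart and lower (background 5.69%). Papain replicate 4 decided this count: without it 14 of these 18 members were apart and higher (12.9% of all genes). The median of the 17 members still tested was 2.20, against 1.47 in all 6 libraries. Cd93 (a surface receptor of endothelial and myeloid cells), the higher one, stood at 645, 619 and 551 CPM in FK506 libraries and 177, 311 and 199 CPM in papain libraries (log2 difference 1.38, SE 0.44). In libraries of sorted cells, more cells of a type and more RNA per cell of that type cannot be told apart, nor can fewer cells and less RNA per cell.

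**Figure D2:**
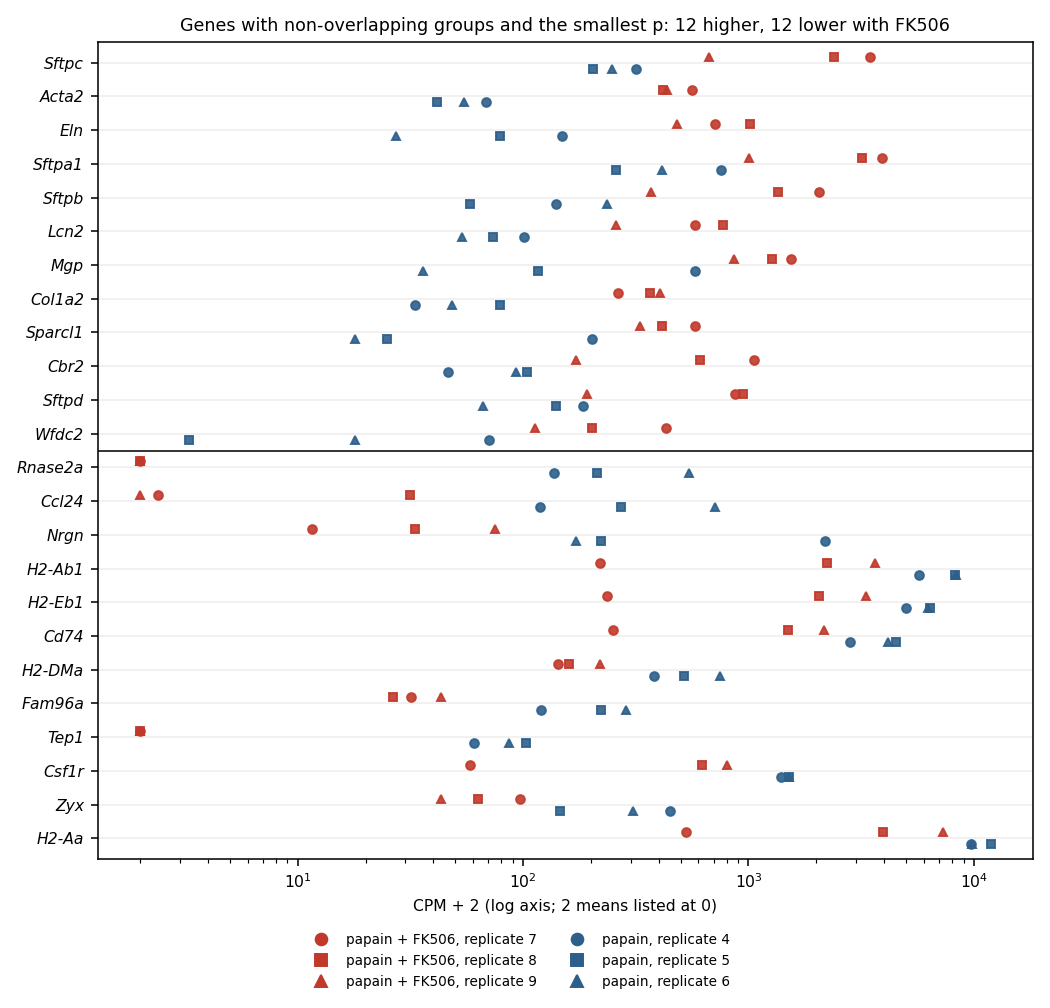
CPM + 2 (log axis) in each library for the 12 genes higher (top) and the 12 lower (bottom) in papain with FK506 (red) than in papain (blue) with the smallest unadjusted p among genes whose groups do not overlap and whose higher group averages at least 50 CPM. Within the lower block, FK506 replicate 7 (red circles) is the lowest FK506 library for the 5 class II genes and Csf1r, while Rnase2a and Tep1 are listed at 0 in all 3 FK506 libraries.

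The genes of MHC class II made up 5 of the 12 genes in the lower block, and none of the 7 tested members of the 11-gene list was higher. Class II promoters are known to share several elements, among them the Y box, which is shown for the tested members whose windows hold it. RefSeq promoter windows (GRCm38.p6, 250 bases before to 50 after a gene's start) were in the table used here for 4 of the 7 tested members. The letters TGATTGG on the gene's strand, chosen after the windows were seen, occurred in 3 of them and in 4.01% of all 32851 windows (7.82% on either strand). Of all 11 list members, 8 had a window and 7 of these held the letters on the gene's strand. Among them were H2-Eb2, H2-DMb2, H2-Oa and H2-Ob, which were not tested. Capitals mark the match, which is a description of the letters and shows no binding.
H2-Aa chr17:34287774-34288073, minus strand: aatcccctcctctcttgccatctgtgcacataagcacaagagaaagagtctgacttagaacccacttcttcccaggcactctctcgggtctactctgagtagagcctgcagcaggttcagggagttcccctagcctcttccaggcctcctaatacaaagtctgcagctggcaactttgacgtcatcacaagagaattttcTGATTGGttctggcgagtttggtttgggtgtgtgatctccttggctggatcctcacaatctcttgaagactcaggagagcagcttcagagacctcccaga
H2-Eb1 chr17:34305617-34305916, plus strand: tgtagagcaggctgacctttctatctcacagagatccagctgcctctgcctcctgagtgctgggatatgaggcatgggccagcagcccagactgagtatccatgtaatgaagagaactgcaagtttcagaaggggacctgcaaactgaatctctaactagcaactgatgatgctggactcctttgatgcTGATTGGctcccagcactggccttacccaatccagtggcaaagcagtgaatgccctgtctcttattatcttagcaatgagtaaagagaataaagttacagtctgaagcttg
H2-DMb1 chr17:34152941-34153240, plus strand: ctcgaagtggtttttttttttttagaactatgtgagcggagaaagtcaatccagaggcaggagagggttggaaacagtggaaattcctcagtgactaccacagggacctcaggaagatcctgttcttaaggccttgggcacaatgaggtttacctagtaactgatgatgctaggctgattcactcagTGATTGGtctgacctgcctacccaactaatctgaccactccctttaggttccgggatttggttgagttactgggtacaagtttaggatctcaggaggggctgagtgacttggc
In the H2-Aa window the match begins 50 bases before the start, in H2-Eb1 61 and in H2-DMb1 63. Both windows of H2-DMa lack these letters.

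The classical chains gave the largest values. H2-Aa (alpha chain of I-A; chromosome 17, 34282744 to 34287823) stood at 525, 3962 and 7302 CPM in FK506 libraries and 9739.7, 11869 and 9831 CPM in papain libraries, and its log2 difference was -2.12 (SE 0.63; adjusted p = 0.595 in limma). H2-Ab1 (beta chain of I-A; chromosome 17, 34257689 to 34269419) stood at 218, 2238 and 3643 CPM in FK506 libraries and 5713, 8273 and 8316 CPM in papain libraries, and its log2 difference was -2.64 (SE 0.68; adjusted p = 0.409 in limma). H2-Eb1 (beta chain of I-E; chromosome 17, 34305867 to 34316674) stood at 233, 2063 and 3324 CPM in FK506 libraries and 4993, 6396 and 6227 CPM in papain libraries, and its log2 difference was -2.37 (SE 0.65; adjusted p = 0.573 in limma). In each the highest FK506 library, replicate 9, lay below the lowest papain library, and replicate 7 lay far below both others. Cd74, the invariant chain that guides class II molecules to the peptide loading compartment, stood at 248, 1496 and 2162 CPM in FK506 libraries and 2815, 4533 and 4171 CPM in papain libraries (log2 difference -2.06, SE 0.57). H2-DMa, a chain of the peptide exchange factor H2-DM, stood at 141, 158 and 217 CPM in FK506 libraries and 378, 515 and 747 CPM in papain libraries (log2 difference -1.67, SE 0.47). It varied less among the FK506 libraries than the classical chains did. H2-DMb1, its partner chain, stood at 2.2, 147 and 317 CPM in FK506 libraries and 310.2, 741 and 866 CPM in papain libraries and overlapped by a small margin (log2 difference -3.36, SE 1.06). The transactivator gene Ciita, on which class II transcription depends, was low in all libraries, at 0, 48.2 and 8.9 CPM with FK506 and 0, 22.9 and 63.1 CPM with papain. Without FK506 replicate 7 its log2 difference was 0.62, the opposite sign of the -0.56 in all 6 libraries.

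None of the 7 passed the adjusted threshold in the 6 libraries, and 5 were apart and lower (background 5.69%). An unadjusted limma p under 0.05 was seen in 6, all lower (background 3.11%). Summed over the list, class II stood at 1380.3, 10113 and 16978 CPM in the FK506 libraries, against 23971, 32351 and 30226 CPM in the papain libraries. The median log2 difference of the tested members was -2.12 and depended on FK506 replicate 7: it was -1.18 without that library, with 5 members still apart and lower (9.44% of all genes). The median was -2.90 without FK506 replicate 9, when H2-Aa, H2-Ab1, H2-Eb1, Cd74 and H2-DMb1 each reached an adjusted p of 0.013 to 0.029 (limma). On the recovered reads neither edgeR nor DESeq2 called any of them; the smallest DESeq2 adjusted p was 0.111, for H2-DMa. The macrophage and monocyte list was lowest in FK506 replicate 7 too, and its part in the class II values was not tested. Class I genes lay closer together: of 8 tested members H2-D1 was apart and lower (background 5.69%). It stood at 1926, 1986 and 2002 CPM in FK506 libraries and 4143, 2444 and 2161 CPM in papain libraries (log2 difference -0.56, SE 0.34). B2m, the shared light chain, stood at 1801, 2299 and 2069 CPM with FK506 and 3094, 2717 and 2259 CPM with papain.

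**Figure D3:**
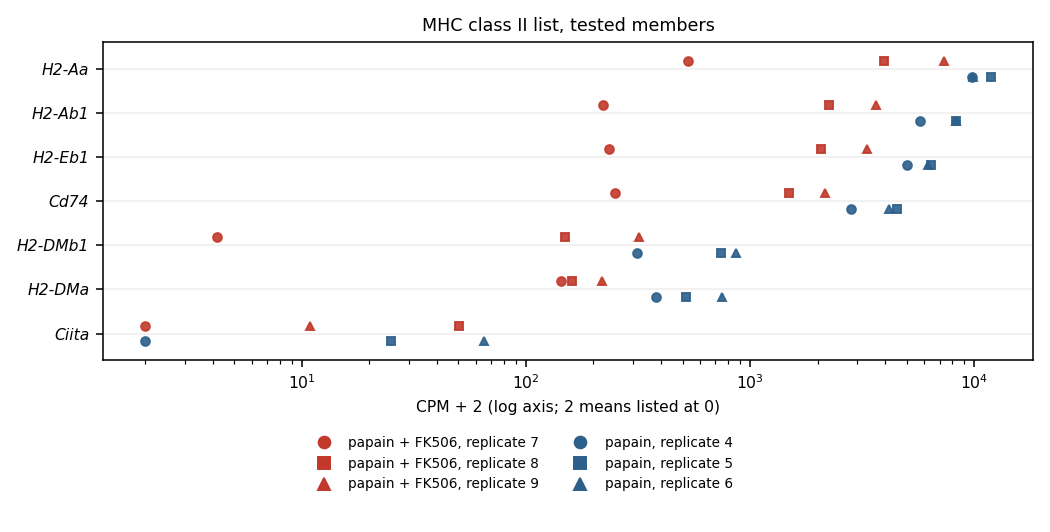
CPM + 2 (log axis) of the 7 tested MHC class II genes in the papain with FK506 libraries (red) and the papain libraries (blue), in order of mean level. For H2-Aa, H2-Ab1, H2-Eb1, Cd74 and H2-DMa every red point lies left of every blue one; for H2-DMb1 and Ciita they overlap, and FK506 replicate 7 (red circle) is far left of the other red points except for H2-DMa and Ciita.

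Of 27 tested macrophage and monocyte genes 20 had negative log2 differences, and at an unadjusted p under 0.05 there were 8 lower (3.11% of all genes) and 1 higher (3.03%). Csf1r (the receptor for macrophage colony-stimulating factor) stood at 55.9, 619 and 804 CPM in FK506 libraries and 1397, 1505 and 1518 CPM in papain libraries (log2 difference -2.31, SE 0.68). Apoe (apolipoprotein E, abundant in macrophages) stood at 196, 3943 and 4872 CPM in FK506 libraries and 3734, 7385 and 5329.7 CPM in papain libraries, with overlap (log2 difference -1.81, SE 0.79). Ctss (cathepsin S, a lysosomal protease that trims the invariant chain) stood at 263, 2425 and 2526 CPM in FK506 libraries and 2010.3, 3528 and 2827 CPM in papain libraries (log2 difference -1.26, SE 0.62). In all 3 genes FK506 replicate 7 was lowest of the 6 libraries. The complement genes C1qa, C1qb and C1qc, named here after their values were seen, stood in that library at 19.2, 31.0 and 0 CPM, against 453 to 1267 CPM in the other FK506 libraries and 721 to 1635 CPM in the papain libraries. In this list 2 members were apart and lower (Csf1r and Ear2; background 5.69%) and 2 apart and higher (Ctsd and Marco; background 5.83%). Ear2 (log2 difference -2.70), named after its values were seen, is also in the eosinophil list and counts in both. Ctsd (cathepsin D) stood at 1512, 1182 and 1186 CPM in FK506 libraries and 509, 1086 and 1034 CPM in papain libraries (log2 difference 0.58, SE 0.39). Marco, a scavenger receptor of alveolar macrophages that was named after its values were seen, stood at 1042, 376 and 225 CPM in FK506 libraries and 0, 96.0 and 129.6 CPM in papain libraries (log2 difference 3.85, SE 1.13). The list median was -0.74 and lay at -0.25 without FK506 replicate 7 and at -1.45 without papain replicate 4, when 11 members were apart and lower (10.9% of all genes).

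The lowest p among lower genes belonged to Rnase2a, a ribonuclease of the eosinophil-associated family whose members resemble each other closely, so that reads may be shared among them. It was listed at 0 in all 3 FK506 libraries and stood at 135, 211 and 545 CPM in the papain libraries; limma gave an adjusted p of 0.0989 and edgeR 0.043, without a fold since 1 group is at 0. Ccl24 (eotaxin-2, a chemokine for eosinophils that alternatively activated macrophages release) stood at 0.4, 29.6 and 0 CPM in FK506 libraries and 117, 269 and 710.2 CPM in papain libraries (log2 difference -5.77, SE 1.26). Both genes were highest in papain replicate 6. The granule genes that define eosinophils, Epx, Prg2 and Prg3, named here for that reason, were listed at 0 in all 6 libraries. Of the 18 eosinophil genes 8 were tested, 3 were apart and lower (background 5.69%) and 4 had an unadjusted p under 0.05, all lower (background 3.11%), with a median of -2.11 (-1.38 to -2.91 with a library left out). Fcgr3 (a low-affinity IgG receptor also found on macrophages) stood at 51.5, 299.7 and 430.2 CPM in FK506 libraries and 313, 808 and 748 CPM in papain libraries (log2 difference -1.64, SE 0.66).

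Genes known to respond to IL-4 and IL-13 in macrophages overlapped with few exceptions. Retnla (a resistin-like secreted protein) stood at 1088, 544 and 64.9 CPM in FK506 libraries and 368, 1700.1 and 2299 CPM in papain libraries. Arg1 (arginase 1) stood at 209.5, 603 and 1079 CPM in FK506 libraries and 364, 1511 and 2119.6 CPM in papain libraries. Chil3 (a chitinase-like protein) stood at 1673, 580.4 and 504 CPM in FK506 libraries and 432, 1426 and 3069.7 CPM in papain libraries. The groups overlapped in all 3; the unadjusted p in limma was 0.032 for Retnla, 0.098 for Arg1 and 0.238 for Chil3. Mgl2 (a macrophage and dendritic cell lectin) was listed at 0 in FK506 replicates 7 and 8 and stood at 89.6 CPM in replicate 9, against 63.1, 182 and 374 CPM in the papain libraries. Clec10a, its close relative, was also at 0 in replicates 7 and 8 and at 40.5 CPM in replicate 9, below the 51.2, 49.8 and 152 CPM of the papain libraries. Of 14 tested members 2 were apart and lower, Ccl24 and Clec10a (background 5.69%), and 5 had an unadjusted p under 0.05, all lower (background 3.11%; median -1.18). Papain replicate 4 was lowest of its group for Arg1, Chil3 and Retnla, and without it 8 members were apart and lower (10.9% of all genes).

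The target pathway of FK506 showed no member past the threshold. Fkbp1a, which encodes the protein FK506 binds, stood at 314, 547 and 236 CPM in FK506 libraries and 316, 206 and 264 CPM in papain libraries (log2 difference 0.36, SE 0.47). Ppp3ca (a catalytic subunit of calcineurin) stood at 20.1, 172 and 266 CPM in FK506 libraries and 237, 155 and 108 CPM in papain libraries (log2 difference -0.71, SE 0.80). Ppp3r1 (its regulatory subunit) stood at 174, 214 and 167 CPM in FK506 libraries and 52.5, 75.9 and 308 CPM in papain libraries (log2 difference 0.71, SE 0.67). FK506 replicate 7 was the lowest of the 6 libraries for Ppp3ca, whose log2 difference was 0.41 without it. Nfatc1 stood at 4.4, 157 and 14.2 CPM in FK506 libraries and 69.1, 50.4 and 33.4 CPM in papain libraries (log2 difference -1.04, SE 1.28). The feedback inhibitor gene Rcan1, whose transcription NFAT drives, stood at 8.3, 59.9 and 72.6 CPM in FK506 libraries and 98.6, 14.2 and 0.7 CPM in papain libraries (log2 difference 1.12, SE 1.58). Within each group Rcan1 spread widely, so a change of that gene was not detectable. Nfatc1 had a log2 difference of 0.17 in edgeR, the opposite sign, and group means of 58.5 and 51.0 CPM. Nr4a1, an orphan nuclear receptor gene induced through calcium, stood at 1083, 877 and 1191 CPM in FK506 libraries and 1451, 996 and 769 CPM in papain libraries (log2 difference -0.04, SE 0.37). Of 15 tested members of the calcineurin and NFAT list of 22, 1 was apart and higher (background 5.83%). It was Cabin1, a calcineurin-binding inhibitor gene named after its values were seen, at 83.8, 87.4 and 94.5 CPM in the FK506 libraries against 1.3, 66.2 and 17.7 CPM in the papain libraries. In this list, 0 members had an unadjusted limma p under 0.05 in either direction (edgeR and DESeq2 called none), and the median was -0.04. Among 9 tested FK506-binding protein genes 1 was apart and higher (background 5.83%), and the median was 0.15. It was Fkbp3 (a nuclear member of the family), at 225, 40.6 and 50.3 CPM in FK506 libraries and 36.2, 0 and 37.5 CPM in papain libraries (log2 difference 2.44, SE 1.36).

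Cytokine and chemokine genes that calcineurin signals are known to feed were low or overlapping. Il13 and Il4 were listed at 0 in all 6 libraries, and Il6 stood at 0, 48.2 and 59.2 CPM with FK506 and 0, 8.4 and 28 CPM with papain. Tnf (tumour necrosis factor) stood at 192, 102 and 183 CPM in FK506 libraries and 43.9, 73.0 and 129.6 CPM in papain libraries; 2 of the FK506 libraries exceeded all papain libraries (log2 difference 0.96, SE 0.67). Il1b (interleukin 1 beta) stood at 297, 1639 and 3078 CPM in FK506 libraries and 1288, 1517 and 1825 CPM in papain libraries (log2 difference -0.47, SE 0.59). Of 10 tested cytokine and growth factor genes none was apart. Cxcl2, a neutrophil-attracting chemokine, was among the most abundant transcripts at 1889, 12069 and 16671 CPM in FK506 libraries and 6801, 7820.1 and 8376 CPM in papain libraries, that is, FK506 replicates 8 and 9 lay above and replicate 7 below all papain libraries (log2 difference -0.13, SE 0.56). The same order held for Ccl3 (a macrophage inflammatory protein), at 48.4, 341 and 529.9 CPM in FK506 libraries and 328, 329 and 289 CPM in papain libraries (log2 difference -0.65, SE 0.68). Ccl4 followed it, at 0, 170.0 and 228 CPM in FK506 libraries and 69.5, 155 and 112 CPM in papain libraries (log2 difference -1.36, SE 1.29). For Cxcl2, Ccl3, Ccl4 and Il1b the sign rested on the low value of FK506 replicate 7: without it the log2 difference was 0.87 for Cxcl2, 0.41 for Ccl3, 0.85 for Ccl4 and 0.53 for Il1b. On the recovered reads of all 6 libraries edgeR gave 0.38 for Cxcl2, 0.21 for Ccl4 and 0.085 for Il1b. Ccl9, a myeloid chemokine, stood at 2.2, 209.8 and 98.5 CPM in FK506 libraries and 199, 365 and 632 CPM in papain libraries (log2 difference -3.05, SE 1.02). Ccl24, lower, was the one of 10 tested CC chemokines whose groups did not overlap (background 5.69% lower). Of 8 CXC genes it was Cxcl14, higher (background 5.83%), an epithelial and fibroblast chemokine named after its values were seen. Cxcl14 stood at 17.0, 52.3 and 29.2 CPM in the FK506 libraries and 12.5, 0 and 0 CPM in the papain libraries.

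**Figure D4:**
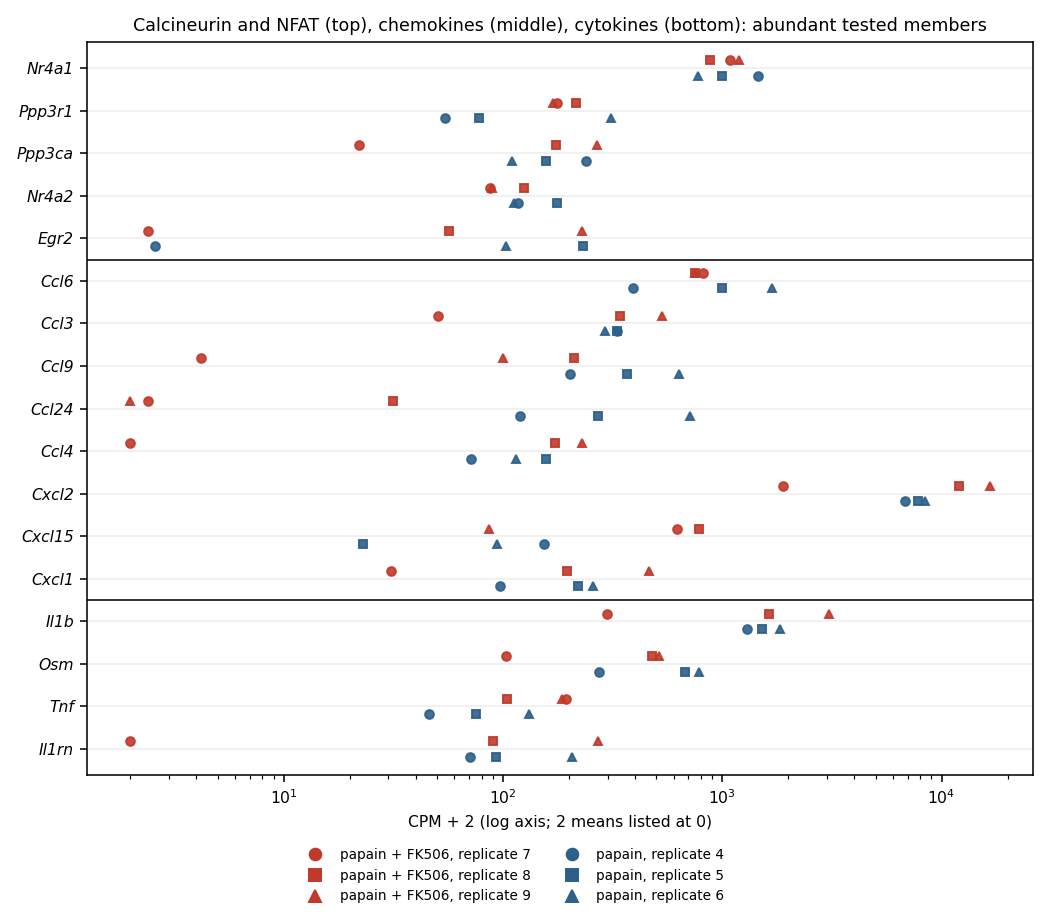
CPM + 2 (log axis) in each library for 5 abundant tested members of the calcineurin and NFAT list (top) and the highest-mean tested members of the CC and CXC chemokine lists (8, middle) and of the cytokine list (4, bottom); red is papain with FK506, blue is papain. Groups overlap in every row but Ccl24, and FK506 replicate 7 (red circle) lies far left of its group for Ppp3ca, Ccl3, Ccl9, Ccl4, Cxcl2, Cxcl1, Il1b and Il1rn.

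Immediate early genes were abundant in both groups. Fosb (an AP-1 subunit), named after its values were seen, stood at 1099, 748 and 976 CPM in the FK506 libraries and at 328, 474 and 398 CPM in the papain libraries (log2 difference 1.18, SE 0.39, limma adjusted p = 0.686). Jun stood at 2232, 1939 and 1899 CPM in FK506 libraries and 1541, 1193 and 1532 CPM in papain libraries, also without overlap but with a small difference (log2 difference 0.46, SE 0.33). Junb overlapped at 3107, 2897 and 3136 CPM with FK506 and 3080.1, 3499 and 3646 CPM with papain, and Egr1 at 1042, 1547 and 1406 CPM with FK506 and 1049.6, 1175 and 936 CPM with papain. Of 26 tested members of the list 2 were apart and higher (background 5.83%) and 1 apart and lower (background 5.69%), and the median was -0.16. The lower member was Zfp36 (a protein that destabilises cytokine transcripts, named after its values were seen), at 120, 241 and 279 CPM in FK506 libraries and 336, 494 and 493 CPM in papain libraries. The NF-kB inhibitor gene Nfkbia stood at 2384, 2839.6 and 5185 CPM in FK506 libraries and 2638, 4073 and 4111 CPM in papain libraries (log2 difference -0.16, SE 0.37). Nfkb1 (the p105 and p50 subunit gene) stood at 286, 65.4 and 66.9 CPM in FK506 libraries and 1.9, 32.0 and 26.3 CPM in papain libraries (log2 difference 2.77, SE 1.16). It was 1 of 2 NF-kB genes of 16 tested that were apart, both higher (background 5.83%).

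Platelet transcripts were highest in papain replicate 4. Nrgn (neurogranin, abundant in platelets as well as neurons) stood at 9.6, 31.1 and 73.0 CPM in FK506 libraries and 2178, 220.4 and 169 CPM in papain libraries (log2 difference -3.88, SE 0.88). Pf4 (platelet factor 4) stood at 13.5, 384 and 587 CPM in FK506 libraries and 1409, 409 and 180.0 CPM in papain libraries (log2 difference -1.68, SE 0.98). Without papain replicate 4 the list median was -2.16, against -3.43 in all 6 libraries. Among the remaining lower genes of the first block, Zyx (zyxin, a focal adhesion protein) stood at 94.7, 61.4 and 41.4 CPM in FK506 libraries and 445, 144 and 304 CPM in papain libraries (log2 difference -2.13, SE 0.63). Fam96a (a factor of cytosolic iron-sulfur protein assembly) stood at 29.7, 24.5 and 41.4 CPM in FK506 libraries and 118, 221 and 285 CPM in papain libraries (log2 difference -2.62, SE 0.74). Tep1 (telomerase-associated protein 1) was listed at 0 in all 3 FK506 libraries and at 58.6, 102 and 84.2 CPM in the papain libraries. In these 3 genes papain and FK506 libraries did not overlap.

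In 22 genes all 3 papain libraries were listed at 0 and all 3 FK506 libraries above 0, and in 19 the reverse held. The 36 ribosomal protein genes summed to 20338, 15707 and 16368 CPM in the FK506 libraries, against 17132, 18133 and 18998 CPM in the papain libraries, with 3 of 30 tested members apart and higher, 2 apart and lower and a median of -0.14 (background 5.83% higher, 5.69% lower). The nuclear RNA Malat1 stood at 18767, 16409 and 13814 CPM in FK506 libraries and 12775, 16971 and 15108 CPM in papain libraries (log2 difference 0.07, SE 0.32). None of the 16 tested unfolded protein response genes, 11 cell cycle genes or 18 Fc receptor signalling genes was apart; 14 of the Fc receptor genes had negative differences, and without FK506 replicate 9, 6 were apart and lower (11.6% of all genes). In the lysosome and antigen processing list 3 of 21 were apart and lower (background 5.69%), and Ctsd was apart and higher (background 5.83%). Among the lower was Cst3 (cystatin C, a cathepsin inhibitor), at 365, 1329.7 and 1232 CPM in FK506 libraries and 1977, 1358 and 1450.3 CPM in papain libraries (log2 difference -0.95, SE 0.45). Without papain replicate 4, 8 were apart and lower (10.9% of all genes). The p53 and apoptosis list had 3 of 19 apart and lower (background 5.69%), with a median of -1.28, and 7 without FK506 replicate 9 (11.6% of all genes); Cdkn1a (a cell cycle inhibitor gene), at 742, 697 and 671 CPM with FK506 and 1213, 667 and 811 CPM with papain, overlapped. So did Pim1 (a survival kinase), at 367, 669 and 1004 CPM with FK506 and 747, 929 and 989 CPM with papain.

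**Figure D5:**
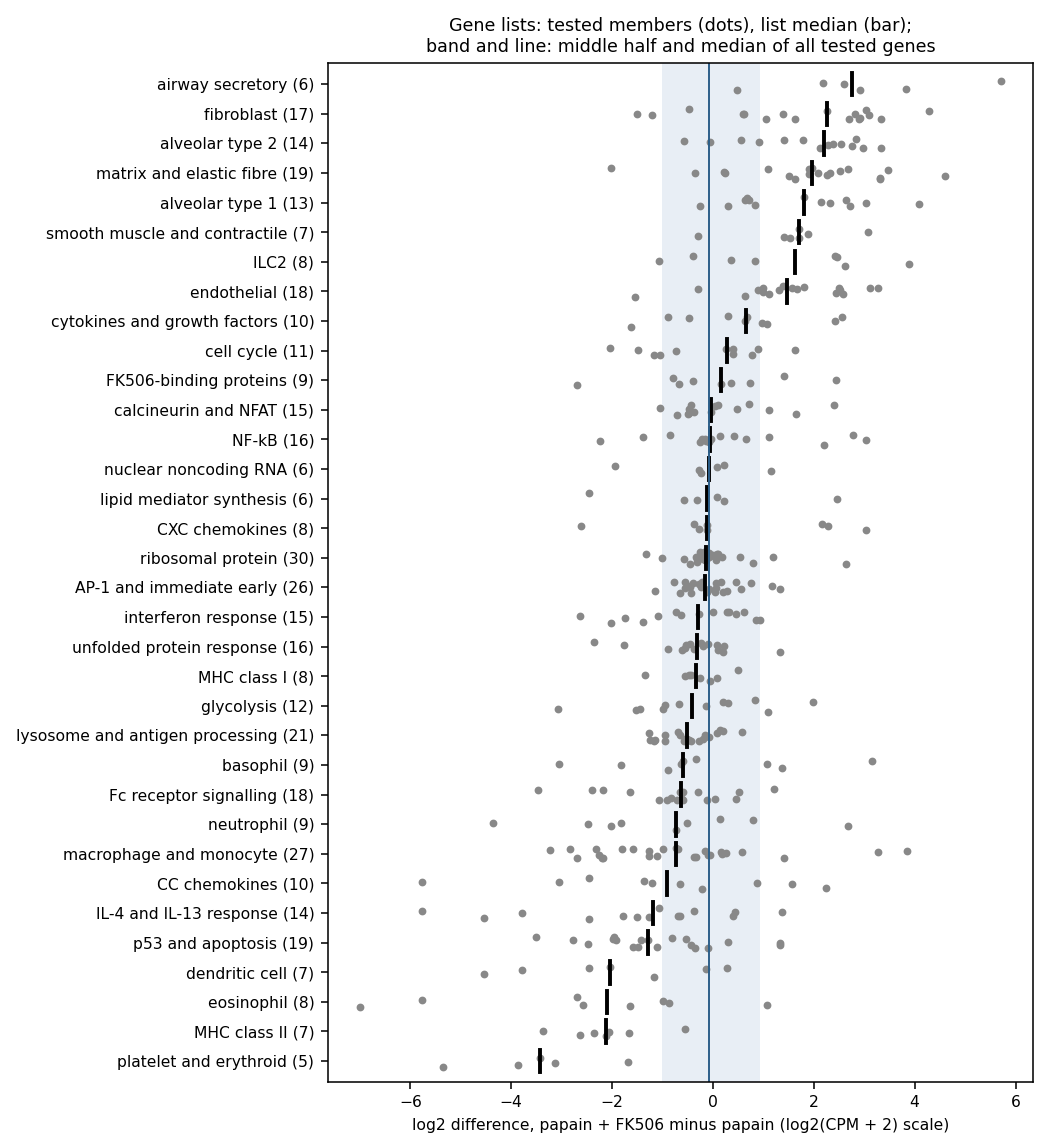
The log2 difference, papain with FK506 minus papain on the log2(CPM + 2) scale, of each tested member (dots) and the median (bar) of 34 gene lists with at least 5 tested members, numbers tested in brackets. Blue marks the median (-0.08) and the quartiles (-1.0 and 0.91) of all tested genes. Structural cell lists and the ILC2 list (median 1.63) have medians right of the band. Platelet, class II, eosinophil, dendritic cell, p53 and IL-4 response lists have medians left of it. The ILC2 median was 0.83 without FK506 replicate 7. Over all settings the lowest median was 0.022 for ILC2, 0.632 for endothelial, 0.812 for smooth muscle and 0.847 for alveolar type 1. The highest was -0.81 for p53 and -0.554 for IL-4 response.

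FK506 was also given to papain-treated mice whose ILC2 were sorted, and the difference between the 2 cell labels was tested as an interaction over 7814 genes. The FK506 effect in basophil-labelled libraries minus that in ILC2 passed the adjusted threshold in 0 genes (limma; 409, or 5.23%, at an unadjusted p under 0.05). The smallest p belonged to Psap (prosaposin, a lysosomal lipid cofactor precursor), with an interaction of -2.17 (SE 0.47, limma adjusted p = 0.136). In basophil-labelled libraries Psap overlapped, at 2269, 7194 and 8316 CPM with FK506 and 4661, 8413 and 10305 CPM with papain. In ILC2 it stood at 1522, 749 and 8602 with FK506, highest in replicate 3, and at 417, 611 and 1340 with papain. Sftpc had an interaction of 4.57 (SE 1.20, adjusted p = 0.74) and H2-Ab1 of -2.83 (SE 1.19, adjusted p = 0.923). In ILC2, H2-Ab1 stood at 2, 5 and 4143 in the FK506 libraries, against 21, 24 and 142 in the papain libraries, values the authors gave as whole numbers, so that 1 ILC2 library, FK506 replicate 3, stood far above the rest. Nothing above is therefore shown to be particular to the basophil-labelled libraries.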

How the data were processed

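The authors deposited, for each basophil-labelled library, a table of CPM values per gene, relative to a library total larger than the sum of the listed genes. The ILC2 tables the authors deposited hold a score, a normalized value rounded to whole numbers. STAR 2.7.0c, featureCounts 1.6.0, mm10 and GRCm38.p6 are named, per the submitters' processing notes; strand and multiple mapping settings are not given in the sources used here.

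Groups came from the labels. Genes with at least 10 CPM in at least 3 of the 6 libraries were tested with limma 3.58.1 (R 4.3.3; trend, two-sided) on log2(CPM + 2) after TMM scaling, with Benjamini-Hochberg adjustment over all genes tested and a threshold of 0.05. On this scale the differences of low genes are understated. Read totals were recovered from the CPM steps, and the recovered counts were tested with edgeR 4.0.16 (quasi-likelihood) and DESeq2 1.42.0, added after seeing the data. The interaction with ILC2 used limma with a term for ILC2 replicate 3, whose deposited data carry another code than the other replicates of these ILC2 groups. Alternatives were other scalings, pseudocounts, filters and variance settings, the untreated library in the fit, and each library left out.

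The genes, lists and marker sets were chosen with earlier results of these data known. Genes named were the 12 higher and 12 lower with the smallest unadjusted p among those without overlap and averaging at least 50 CPM in the higher group; the up to 4 highest members of each list; defining basophil genes and FK506 target genes; called genes; and members of the class II, matrix and smooth muscle lists. Genes outside this rule are said to have been named after their values were seen, except Gapdh and the eosinophil genes Epx, Prg2 and Prg3. Some members of the lists are not reported here.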

Additional observations from a re-analysis of the deposited data

How the results depend on the processing

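With FK506 against papain, 3 genes were called; 3 were called with no scaling, with relative log expression factors and after dividing by the sum over listed genes. The count was 0 with a pseudocount of 1 CPM, 9 with 5 CPM, 0 with no filter, 0 with a minimum of 50 CPM, 0 with no variance trend, 20 with robust empirical Bayes and 0 with the untreated library in the fit; edgeR called 1 and DESeq2 46. Leaving out 1 library gave 0 to 21. The interaction with ILC2 called 0 genes, 1 with no scaling, 1 with a pseudocount of 5 CPM, and 0 to 5 with 1 library left out. The causes were not tested. No paired analysis was possible because the papain with FK506 and papain libraries share no replicate numbers; a replicate block within ILC2 left the interaction at 0 calls.

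The log2 differences of named genes changed sign in 114 of the values under alternatives, in 55 genes, and 28 of these came without FK506 replicate 7. None was called in all 6 libraries. With 1 library left out, the log2 difference took both signs in the following genes. Alox5ap ran from -1.05 to 0.19, Atf4 from -0.35 to 0.22 and Calr from -0.80 to 0.032. Ccl3 ran from -1.31 to 0.41, Ccl4 from -2.57 to 0.85 and Ccl5 from -0.28 to 2.57. Ccl6 ran from -0.79 to 0.28, Ciita from -1.99 to 0.62 and Col4a1 from -0.73 to 2.59. Col6a1 ran from -0.86 to 0.30, Csf2rb from -1.09 to 0.005 and Cxcl1 from -1.23 to 0.75. Cxcl16 ran from -0.49 to 0.049, Cxcl2 from -0.72 to 0.87 and Cyr61 from -0.26 to 0.84. Emilin1 ran from -0.58 to 1.21, Fcer1g from -0.92 to 0.021 and Fkbp2 from -0.69 to 0.64. Gzma ran from -1.24 to 1.09, H2-K1 from -0.32 to 0.21 and Hk2 from -0.027 to 0.60. Hp ran from -0.17 to 1.19, Hspa5 from -0.087 to 0.47 and Ier3 from -0.55 to 0.30. Ifitm3 ran from -0.32 to 0.94, Il1b from -1.17 to 0.53 and Il1rn from -3.06 to 0.47. Irf8 ran from -3.22 to 0.10, Ldha from -1.27 to 0.036 and Lta4h from -0.083 to 0.86. Lyz2 ran from -0.23 to 0.19, Malat1 from -0.027 to 0.20 and Mcl1 from -0.71 to 0.094. Naaa ran from -0.31 to 0.66, Neat1 from -0.78 to 0.30 and Nfkbia from -0.49 to 0.095. Nr4a1 ran from -0.24 to 0.21, Pkm from -0.36 to 0.044 and Ppp3ca from -1.41 to 0.41. Psap ran from -0.92 to 0.042, Ptgs1 from -0.086 to 0.31 and Ptprc from -0.74 to 0.23. Ramp2 ran from -0.17 to 2.07, Rcan1 from -0.18 to 2.43 and Rplp1 from -0.38 to 0.14. S100a8 ran from -1.64 to 0.79, S100a9 from -1.64 to 0.45 and Timp3 from -0.13 to 1.63. Tnfaip3 ran from -0.49 to 0.46, Top2a from -0.97 to 1.83 and Tpm1 from -0.81 to 0.59. Tppp3 ran from -0.64 to 0.17, Wfdc21 from -0.89 to 1.5 and Xbp1 from -0.062 to 0.76. With edgeR the sign turned for Gzma (1.06), Xbp1 (-0.013), Fkbp2 (-0.087), Cxcl2 (0.38), Cxcl1 (0.23) and Il1b (0.085). It also turned there for Ifitm3 (-0.019), Nfatc1 (0.17), Ccl4 (0.21), Tpm1 (0.024) and Col4a1 (-0.25). With DESeq2 the sign turned for H2-K1 (0.032), Gzma (1.05), Tnfaip3 (0.006), Cxcl2 (0.40), Cxcl1 (0.25) and Il1b (0.10). It also turned there for Rplp1 (0.026), Nfatc1 (0.17), Ccl4 (0.21), Tpm1 (0.031) and Col4a1 (-0.25). With no scaling the sign turned for H2-K1 (0.001), Nr4a1 (0.008) and Tnfaip3 (0.005). With relative log expression factors the sign turned for H2-K1 (0.001), Nr4a1 (0.008) and Tnfaip3 (0.005). With division by the sum over listed genes the sign turned for H2-K1 (0.024), Lyz2 (0.016), Nr4a1 (0.031) and Tnfaip3 (0.028). With a pseudocount of 5 CPM the sign turned for Gzma (0.058). The causes were not tested. With 3 libraries a group, 2291576 to 3123915 reads a library and 2674 tested genes listed at 0 somewhere, differences of low genes were often not detectable.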
